A study of Mus musculus with 2 samples.

Results

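Cholangiocytes, the epithelial cells that line the bile ducts, were selected on the measured counts of 6 genes in single-cell tables of mouse liver, so these 6 genes describe the selection and are no finding. A cell was taken when Epcam, Krt19, Tspan8, Cldn7, Mmp7 and Scara3 together had at least 5 counts and at least 5 per 10,000 counts of the cell. That sum also had to exceed 2 times the sum of 4 macrophage genes (Siglec1, Tbxas1, Fyb, Lair1) and 2 times the sum of 3 endothelial genes (Egfl7, Ushbp1, Ptprb). The rule gave 124 cholangiocytes among 6079 kept cells of 6116 deposited, where a kept cell had 100 or more detected genes and no more than 10% of its counts on mitochondrial genes. Of these, 29 came from the library labelled AEG-1DMAC and 95 from the library labelled AEG-1fl/fl.

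The study asked what loss of AEG-1, the protein encoded by Mtdh, from myeloid cells does to the liver of mice on a high-fat/high-sugar diet (HF/HSD). AEG-1DMAC mice carry floxed Mtdh alleles that are cut by a Cre expressed from the myeloid LysM (Lyz2) gene, and AEG-1fl/fl littermates carry the floxed alleles without Cre, all on a C57BL/6J background. Both groups received HF/HSD from 7 weeks of age and were 27 weeks old when the livers were taken, so that the diet is shared and no control-diet library enters here. Each genotype is 1 library of fixed liver cells read with a mouse transcriptome probe kit, and the sources used here do not say whether a library came from 1 liver or from several. There is thus no replicate: intervals given with values are 95% intervals of counting error only, cells of 1 library are not replicates, and a difference between the libraries cannot be told apart from a difference between individual mice or preparations.

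The kept cells held 79483780 and 90081981 counts in the libraries labelled AEG-1DMAC and AEG-1fl/fl, with a median of 12746 and 7682 counts a cell. The libraries shared 10 cell barcodes, of which 0 belonged to cholangiocytes. Mtdh ran against the labels in macrophages, the cells in which Cre should act: the 203 macrophages of the library labelled AEG-1DMAC had 134 CPM (counts scaled to a total of 1e+06 per class and library), and the 567 of the library labelled AEG-1fl/fl had 29.5 CPM. In cholangiocytes, which a myeloid Cre is not meant to reach, Mtdh stood at 105 CPM (95% interval 76.8 to 140) in the library labelled AEG-1DMAC and at 74.3 CPM (63.5 to 86.4) in the library labelled AEG-1fl/fl, a log2 ratio of 0.50 with an interval of -0.01 to 0.98. Where the Mtdh probes lie relative to the floxed part is not given in the sources used here. Every log2 ratio below is the library labelled AEG-1DMAC over the library labelled AEG-1fl/fl.

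Cholangiocytes modify the bile that hepatocytes secrete. Secretin acting on its receptor opens the chloride channel CFTR, and exchange of chloride for bicarbonate then makes the bile alkaline. The cells sit on a laminin basement membrane, are sealed by claudins, carry a primary cilium that senses bile flow, and depend on transcription factors such as SOX9 and on Notch signals for their identity. In injured or fatty livers, ducts can expand in a ductular reaction, and reactive cholangiocytes secrete chemokines, growth factors and proteases.

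The label held against genes that the rule did not use. A list of 20 biliary identity genes (keratins, Spp1, Clu, Cd24a, Pkhd1 and others) summed to 41152 CPM in cholangiocytes of the library labelled AEG-1DMAC and 32789 CPM in those of the library labelled AEG-1fl/fl, against 5092 and 6335 CPM in hepatocytes and 2416 and 2208 CPM in macrophages. Of the 20 genes, 15 were at least 4-fold higher in cholangiocytes than in any of 4 other cell classes (hepatocytes, macrophages, endothelial and stellate cells) in both libraries. The same held for 361 of the 9647 genes with at least 30 summed counts. Spp1, which encodes osteopontin, had a count in all 29 and all 95 cholangiocytes, at 9882 and 6334 CPM, while hepatocytes had 79.1 and 239 CPM.

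The genes most particular to the cells by level were the tight junction genes Cldn6 and Cldn4, the potassium channel Kcnma1, Cftr, the endocytic adaptor Epn3 and the kinase Wnk2. Their log2 ratios over the highest other class, with 0.5 added to each summed count and taking the library with the smaller ratio, ran from 7.5 for Cldn6 to 6.71 for Wnk2. Cldn6 stood at 73.0 and 72.5 CPM in cholangiocytes and at 0.00 and 0.10 CPM in hepatocytes. The secretin receptor Sctr stood at 61.5 and 54.4 CPM and had 0.00 and 0.13 CPM in hepatocytes. Keratins were less exclusive. Krt7 followed the pattern of Krt19, with 153 and 166 CPM against 0.03 and 0.49 CPM in hepatocytes, but Krt8 and Krt18 were less than 2-fold above hepatocytes. The water channel Aqp1, often listed with biliary genes, did not mark these cells: with every cell thinned to 3000 counts, 5.02% and 4.56% of cholangiocytes had an Aqp1 count, against 86.6% and 95.3% of endothelial cells and 3.46% and 2.53% of hepatocytes. Thinning left 25 of 29 and 86 of 95 cholangiocytes, and unthinned shares for Aqp1 were 20.7% and 14.7% of cholangiocytes at median depths of 9080 and 9524 counts, and 30.7% and 29.2% of hepatocytes at 28116 and 32616 counts.

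**Figure D1:**
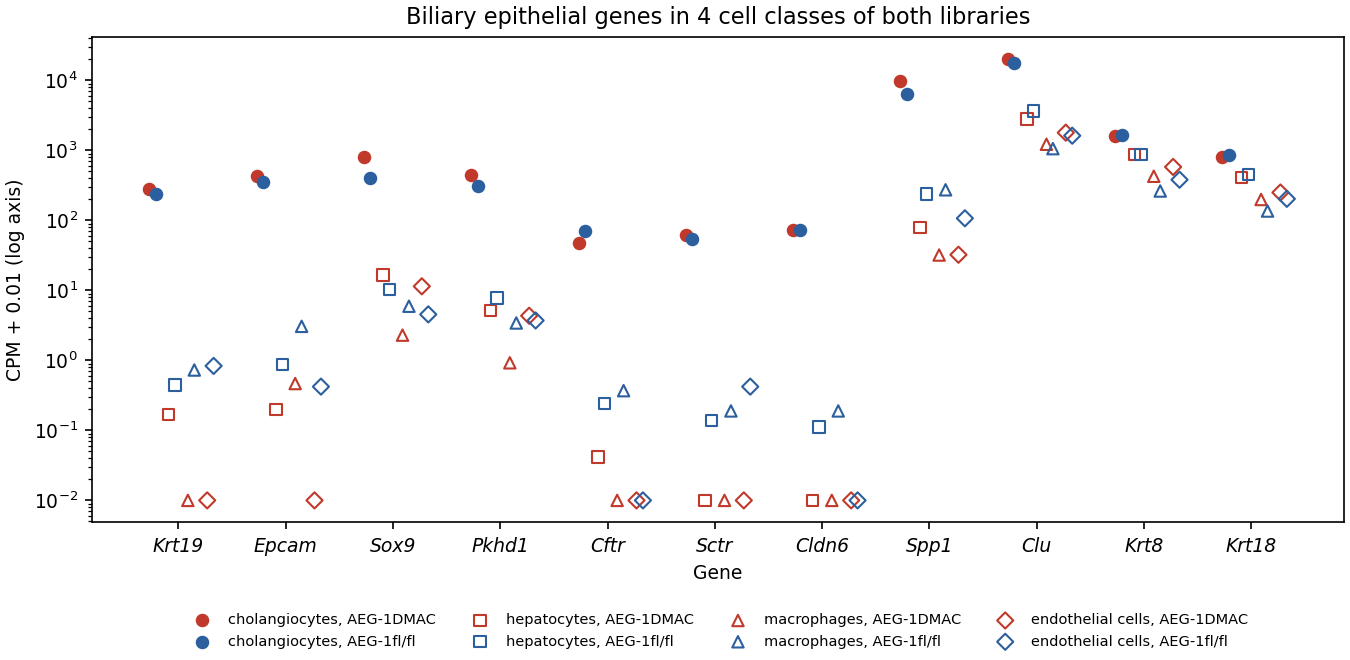
CPM plus 0.01 on a log axis for biliary epithelial genes in cholangiocytes (filled circles), hepatocytes (squares), macrophages (triangles) and endothelial cells (diamonds), in red for the library labelled AEG-1DMAC and blue for AEG-1fl/fl. Krt19 and Epcam belong to the selection rule. Sctr at 61.5 and 54.4 CPM and Cldn6 at 73.0 and 72.5 CPM stand far above the other classes, while for Krt8 and Krt18 the other classes come closest.

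Markers of most other cells were low but not absent. Summed over 14 macrophage genes, cholangiocytes had 501 and 477 CPM, against 20372 and 25246 CPM in macrophages and 408 and 322 CPM in hepatocytes. Summed over 10 endothelial genes they had 109 and 111 CPM, against 6300 and 8112 CPM in endothelial cells. Stellate markers, on which the rule sets no limit, were less separated. Over 10 stellate genes cholangiocytes had 479 and 461 CPM, against 2520 and 9524 CPM in the stellate class and 46.9 and 66.4 CPM in hepatocytes. The stellate class itself had 20.3% and 16.5% of its counts on the 40 hepatocyte genes. T and NK cell genes stood at 2.28 and 4.86 CPM with 6 and 3 of 7 genes at 0, B cell genes at 6.84 and 34.5 CPM with 4 and 0 of 6 at 0, and neutrophil genes at 4.56 and 31.4 CPM with 3 and 0 of 5 at 0. The other epithelium that carries keratins in liver, the mesothelium of the capsule, was checked with 7 genes, of which 5 and 2 were at 0. The mesothelial markers Msln and Upk3b were at 0 in all 29 cholangiocytes of the library labelled AEG-1DMAC, and 8 of 95 in the library labelled AEG-1fl/fl had a count of either. The mesothelial list summed to 162 and 72.5 CPM, of which the membrane glycoprotein Gpm6a alone made 160 and 57.5 CPM.

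Pkhd1 encodes fibrocystin, a protein of the cholangiocyte primary cilium. Pkhd1 stood at 442 and 309 CPM in cholangiocytes and at 5.13 and 7.82 CPM in hepatocytes. It was thus far above hepatocytes in each library, with a count in 27 and 88 cholangiocytes.

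Cholangiocytes differed widely among themselves in depth and in hepatocyte transcripts. Counts per cell ran from 1219 over a median of 9080 to 89977 in the library labelled AEG-1DMAC, and from 1894 over 9524 to 286980 in the library labelled AEG-1fl/fl. Because gene values here are sums over cells, deep cells weigh most: the deepest cell held 20.5% and 12.7% of all cholangiocyte counts, and the 5 deepest held 48.9% and 39.9%. The share of counts on 40 hepatocyte genes ran from 2.13% over a median of 6.43% to 24.2% in the cells of the library labelled AEG-1DMAC, and from 1.05% over 4.77% to 25.5% in the library labelled AEG-1fl/fl.

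Cells with many hepatocyte transcripts were deeper at the median. Over 10% hepatocyte counts were found in 9 of 29 and 25 of 95 cholangiocytes, and these cells held 39.8% and 63.9% of the counts. Their median depth was 21214 and 28977 counts, against 8302 and 8156 in the other cholangiocytes. Single cells departed from this: the highest share, 25.5%, was in a cell of 9524 counts, and the deepest cell of the library labelled AEG-1DMAC had 6.83%. Over cells, the hepatocyte share and the biliary list per 10,000 counts had Spearman correlations of -0.63 (29 cells) and -0.55 (95 cells). These describe cells of 1 library each, and both measures share the cell's total. As sums, hepatocyte genes made 10.2% and 13.2% of cholangiocyte counts, which is 45.6% and 59.2% of their share in hepatocytes. The median over cells had the opposite order, 6.43% and 4.77%. Whether such cells are hepatocyte and cholangiocyte doublets, hold free hepatocyte RNA or express both programmes was not tested.

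**Figure D2:**
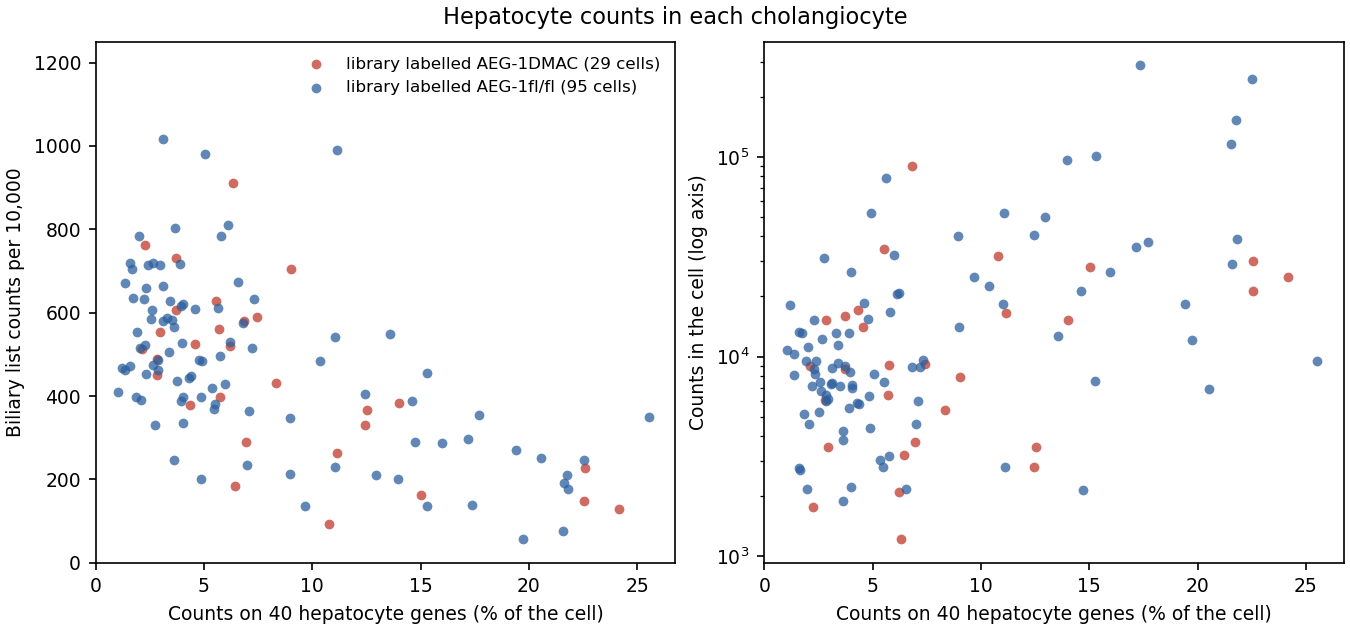
Each point is 1 cholangiocyte, in red for the library labelled AEG-1DMAC (29 cells) and blue for AEG-1fl/fl (95 cells). The share of its counts on 40 hepatocyte genes is set against the counts per 10,000 on 20 biliary identity genes (left) and against its total counts on a log axis (right). Biliary counts per 10,000 tend to fall as the hepatocyte share rises (Spearman correlations of -0.63 and -0.55), but 1 cell of AEG-1fl/fl at 11.1% has 991. Cells with over 10% hepatocyte counts have a median depth of 21214 and 28977 counts.

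For this reason values are given in 3 ways below where they differ. The first is the sum over all cholangiocytes. The second is a mean over cells of counts per 10,000, in which every cell weighs the same. The third is the sum over cholangiocytes at or below the median hepatocyte share of 5.41%, called low-hepatocyte cells. These are 9 and 53 cells with 91466 and 515686 counts. Ratios from these cells are given without intervals and can rest on few counts, above all in the library labelled AEG-1DMAC.

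Cells near the selection threshold were also mixed. Just inside it, at 5 to under 10 marker counts per 10,000, lay 4 and 11 cells with median hepatocyte shares of 18.8% and 19.7%. Just outside, at 3 to under 5 per 10,000, lay 6 and 9 cells with medians of 25.6% and 25.4%. A further 1 and 6 cells had 3 or 4 raw marker counts, and 4 and 8 cells had enough marker counts but too many macrophage or endothelial counts.

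Cholangiocytes made up 1.13% of kept cells (29 of 2571, Clopper-Pearson interval 0.757% to 1.62%) in the library labelled AEG-1DMAC and 2.71% (95 of 3508, 2.20% to 3.30%) in the library labelled AEG-1fl/fl. The share was 2.40-fold lower in the library labelled AEG-1DMAC, and the intervals, which cover counting error only, did not overlap. Mmp7, 1 of the 6 genes of the rule, was itself lower in that library (log2 ratio -1.41). No setting left Mmp7 out of the rule, and its part in the share was not tested. Among kept cells outside the hepatocyte class (600 and 619 cells) the shares were 1.47% (0.988% to 2.11%) and 3.29% (2.67% to 4.01%), a 2.23-fold difference. That class took only cells with at least 5000 counts and each marker sum of other cells below 1 per 10,000. Shallower or mixed hepatocytes could thus remain outside it, so these are not shares of nonparenchymal cells. Over all kept cells, marker minimums of 3 or 10 gave 2.18-fold and 2.71-fold. How a liver is dissociated sets which cells are recovered, so the shares are of recovered cells and not of the liver, and with 1 library per genotype they were not tested.

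Between the libraries, 9647 genes had at least 30 summed counts in cholangiocytes. Of these, 426 (4.42%) were at least 2-fold higher and 470 (4.87%) at least 2-fold lower in the library labelled AEG-1DMAC. With every cell weighted equally, 442 (4.58%) were higher and 1098 (11.4%) lower, and in low-hepatocyte cells 255 (4.56%) and 592 (10.6%) of 5594 genes. Scaling moved the split as well, to 217 higher and 687 lower with edgeR's TMM and 228 and 676 with a median-of-ratios scaling. The median log2 ratio of all these genes was 0.15, and -0.07 with equal weights, -0.03 with TMM and -0.02 with median of ratios. Over the 5594 genes compared in low-hepatocyte cells it was -0.0073. A list's median is thus to be read against that of its own setting, 0.15 for the sums. Its counts higher and lower are to be read against 4.42% and 4.87% in the sums and 4.58% and 11.4% with equal weights. In low-hepatocyte cells the shares to compare are 4.56% and 10.6%.

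Among the genes with the lowest ratios, Lcn2 (chr2:32384633-32388252, minus strand) encodes lipocalin 2, an iron-siderophore binding protein of inflamed epithelia. It stood at 166 CPM (130 to 209, 73 counts) in the library labelled AEG-1DMAC and at 766 CPM (730 to 803, 1732 counts) in the library labelled AEG-1fl/fl, a log2 ratio of -2.20 (-2.56 to -1.86). The ratio was -2.38 with equal weights and -2.16 in low-hepatocyte cells. After thinning, 34.8% of cholangiocytes against 72.5% had an Lcn2 count, and unthinned 65.5% against 90.5%. Lcn2 was also lower in the hepatocytes (log2 ratio -1.09), macrophages (-0.40) and endothelial cells (-1.0) of that library, where its level was 210, 84.1 and 79.5 CPM.

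Foxj1 (chr11:116330704-116335399, minus strand), the master regulator of motile cilia, was singled out after its values were seen. It stood at 52.4 CPM (33.2 to 78.7, 23 counts) and 130 CPM (116 to 146, 295 counts), a log2 ratio of -1.32 (-2.0 to -0.70). The ratio was -1.78 with equal weights and -2.52 in low-hepatocyte cells. A Foxj1 count was found in 10 of 29 and 69 of 95 cholangiocytes, and after thinning in 13.9% and 40.1%, against 0.00192% and 0.0865% of hepatocytes. A smaller share of cholangiocytes thus had Foxj1 in the library labelled AEG-1DMAC.

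Rgs5, a regulator of G protein signalling best known from pericytes, stood at 31.9 CPM (17.4 to 53.5, 14 counts) and 161 CPM (144 to 178, 363 counts), a log2 ratio of -2.33. It was -3.05 with equal weights and -3.26 in low-hepatocyte cells. The difference was spread over cells: 10 of 29 and 56 of 95 had a count, and no cell of the library labelled AEG-1fl/fl held more than 40 of the 363 counts. The 10 stellate markers, of which Rgs5 is one, summed to 479 and 461 CPM, but 147 of the 210 stellate counts of the library labelled AEG-1DMAC lay in 1 cell. Without the cell richest in them in each library, a comparison chosen after seeing the data, the list stood at 153 and 449 CPM, and in low-hepatocyte cells at 43.7 and 694 CPM. Stellate markers were thus lower together with Rgs5 in these settings, and their part in the Rgs5 values was not tested. In hepatocytes, macrophages and endothelial cells the Rgs5 log2 ratio was -0.03, 0.33 and -0.10. The Rgs5 ratio of the stellate class is not reported here. In that class the 10 stellate markers summed to 2520 CPM in the library labelled AEG-1DMAC and 9524 CPM in the library labelled AEG-1fl/fl. A lower Rgs5 value is thus not shown to be particular to cholangiocytes.

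The matrix and defence genes Ltbp2 and Wfdc18 were next to absent from the library labelled AEG-1DMAC. Ltbp2, a microfibril-associated binding protein, had 0 counts against 81 counts in 24 of 95 cells, which is at least 5.24-fold lower against a floor of 3 counts. Wfdc18, of the whey acidic protein family, had 1 count against 135, of which 55 lay in 1 cell of 18202 counts that also held 12 Msln counts. Ubd, a ubiquitin-like modifier induced by cytokines, had 1 count against 93 counts in 26 cells. The remaining genes with the lowest ratios were also expressed by hepatocytes. Cyp7a1, the rate-limiting enzyme of bile acid synthesis, had 2 against 251 counts, and its log2 ratio in hepatocytes was -1.11. Cib3, a calcium-binding protein, had 0 against 90 counts, at least 5.82-fold lower, and -1.65 in hepatocytes. Alas1, the first enzyme of haem synthesis, had a log2 ratio of -2.21, the lipoprotein gene Apoa4 -1.69 and the surface protein gene Ly6d -2.36. These 3 were also lower in hepatocytes in the sums. Cyp4a32, at -3.68 over all cholangiocytes, had 2 against 5 counts and a ratio of 1.17 in low-hepatocyte cells. Nr1i3, the xenobiotic receptor CAR, had 2 against 171 counts, of which 72 lay in 1 cell.

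**Figure D3:**
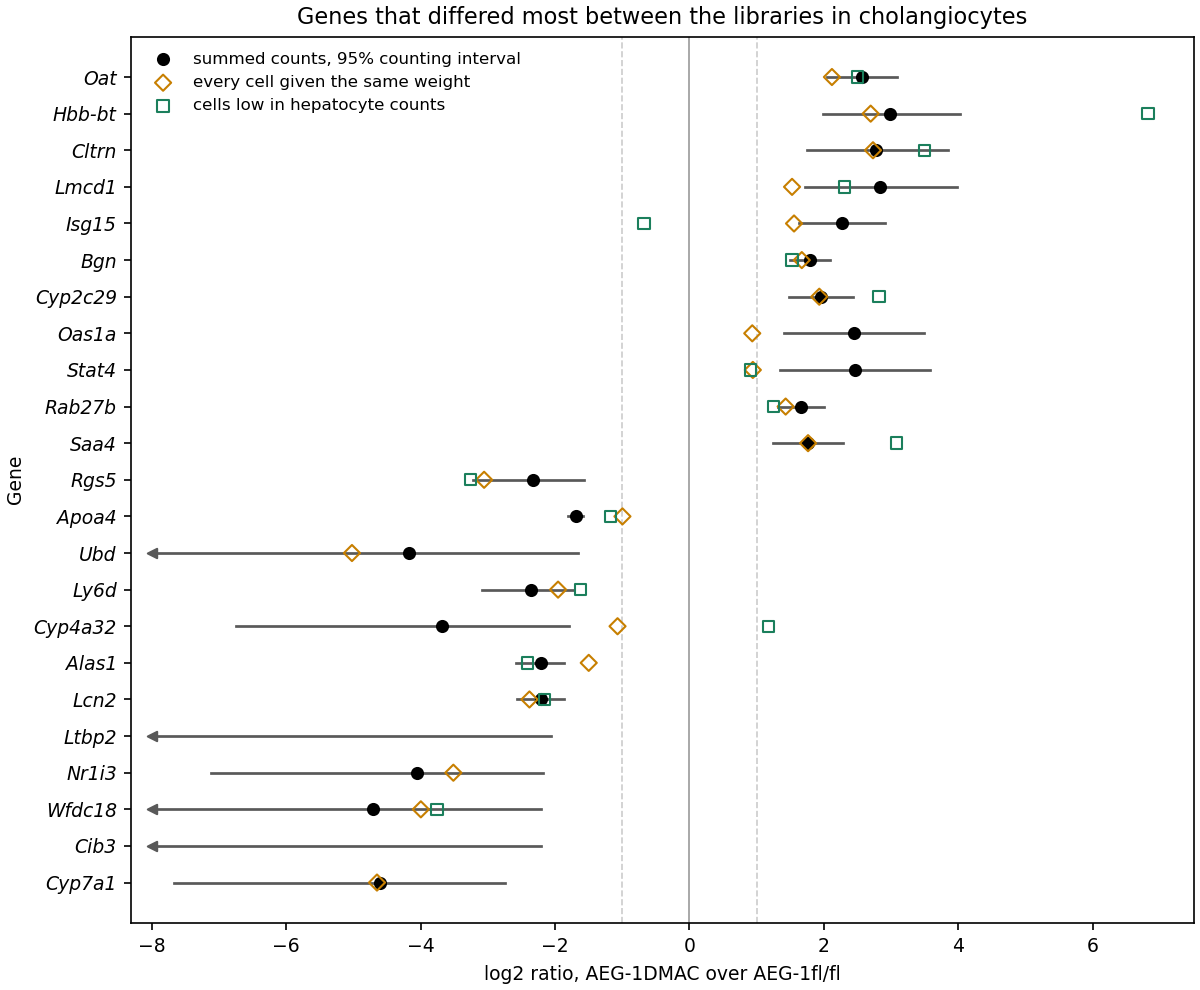
Log2 ratio of the library labelled AEG-1DMAC over AEG-1fl/fl in cholangiocytes for genes with the highest and lowest ratios, ranked by the end of the 95% counting interval nearest to 0. Dots and lines are sums and their intervals, diamonds give equal weight to every cell, squares are low-hepatocyte cells, arrows mark intervals that run past the axis, and points at minus infinity (0 counts in the library labelled AEG-1DMAC) are left out. Lcn2 keeps its place in all 3 (-2.20, -2.38 and -2.16), while Isg15 and Cyp4a32 change sign in low-hepatocyte cells.

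Genes higher in the library labelled AEG-1DMAC included some that were near 0 in hepatocytes. Rab27b, a small GTPase that docks secretory vesicles, stood at 264 CPM (218 to 317, 116 counts) and 83.6 CPM (72.1 to 96.4, 189 counts), a log2 ratio of 1.66 (1.32 to 2.0). It was 1.43 with equal weights and 1.25 in low-hepatocyte cells. A count was found in 27 of 29 and 63 of 95 cholangiocytes, and after thinning in 62.3% and 33.7%, against 0.0518% and 0.172% of hepatocytes. Cltrn, which encodes the membrane protein collectrin, had 20 against 15 counts, a ratio of 2.78 (1.74 to 3.85), in 10 of 29 and 11 of 95 cells.

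Bgn, the matrix proteoglycan biglycan, had a ratio of 1.80 (157 against 233 counts) and 1.52 in low-hepatocyte cells, with 60 of the 157 counts in the deepest cell of the library labelled AEG-1DMAC. Without the deepest cell of each library it was 1.39.

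The other highest ratios rested on few counts, on 1 cell or on hepatocyte genes. Oat, ornithine aminotransferase of hepatocytes, was 2.56 in cholangiocytes, and 2.35, 2.53 and 2.0 in hepatocytes, macrophages and endothelial cells. It was thus higher in these 4 classes, and the stellate class is not reported here. Cyp2c29 and Saa4, a cytochrome P450 and a serum amyloid, had ratios of 1.96 and 1.76 and levels of 501 and 249 CPM in the hepatocytes of the library labelled AEG-1DMAC. Hbb-bt, a haemoglobin chain of red cells, had 17 of its 23 counts in 1 cell. Lmcd1, a transcriptional cofactor, had 18 against 13 counts, a ratio of 2.84, and Stat4 had 16 against 15, a ratio of 2.46 over all cholangiocytes and 0.94 with equal weights.

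Interferon genes rested in part on 1 cell. Isg15, a ubiquitin-like protein induced by interferon, had 42 against 45 counts, a ratio of 2.27, and Oas1a, a sensor of double-stranded RNA, had 18 against 17, a ratio of 2.45. The deepest cholangiocyte of the library labelled AEG-1DMAC (89977 counts) held 22 of the 42 and 10 of the 18 counts, together with 22 of 44 counts of the interferon regulator Irf7. Without the deepest cell of each library the ratios of Isg15 and Oas1a were 1.36 and 1.41, and low-hepatocyte cells had 2 against 18 Isg15 counts, a ratio of -0.67. Over the 17 measured antigen presentation and interferon genes, 3, among them Irf1 and Isg15, were at least 2-fold higher and 0 lower. The median log2 ratio of 0.44 became 0.25 with equal weights and -0.04 in low-hepatocyte cells. MHC class II genes, whose levels were far below those of macrophages, lay between 0.00 (Cd74) and 0.72 (H2-DMa).

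Of 20 biliary identity genes, 2 were at least 2-fold higher (Krt23 and Sorbs2) and 1 lower. The list median of 0.44 became -0.02 with equal weights and -0.08 in low-hepatocyte cells. Krt23, a type I keratin induced in injured liver, stood at 312 CPM (262 to 369) and 124 CPM (110 to 140), a ratio of 1.33 that was 0.91 with equal weights and 1.19 in low-hepatocyte cells. Sorbs2, an adaptor of the actin skeleton, had a ratio of 1.07, and 0.64 and 0.47 in the same 2 settings. Clu, the secreted chaperone clusterin, stood at 20302 and 17839 CPM, a ratio of 0.19 that was -0.24 with equal weights. Of 15 transcription factors, 0 were past 2-fold either way in the sums, with a median of 0.28 that was -0.31 with equal weights. In low-hepatocyte cells the median was -0.23, and 2 of 13 were lower (Sox4 and Grhl2). Sox9 stood at 793 CPM (712 to 881) and 408 CPM (382 to 435), a ratio of 0.96, but at 787 and 902 CPM in low-hepatocyte cells.

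Among the rule's own genes, which describe the selection and carry no test, Mmp7 stood apart. This gene, which encodes the protease matrilysin, stood at 191 CPM (153 to 237) and 507 CPM (478 to 537), a ratio of -1.41 that was -1.96 with equal weights and -3.21 in low-hepatocyte cells. The other 5 lay between 0.22 (Krt19) and 0.81 (Scara3). Since Mmp7 counts helped to admit cells, cells without it needed more counts of the other genes to be admitted.

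Of 14 measured bile secretion genes, 1 was at least 2-fold higher and 0 lower, with a median of 0.11 that was 0.0058 with equal weights and -0.47 in low-hepatocyte cells. The higher gene was Slc5a1, the sodium-glucose cotransporter that takes glucose back from bile, at 349 and 169 CPM, a ratio of 1.05 that was 0.36 with equal weights and 0.16 in low-hepatocyte cells. Cftr (chr6:18170687-18322768, plus strand) stood at 47.9 CPM (29.6 to 73.2, 21 counts) and 70.8 CPM (60.2 to 82.6, 160 counts), a ratio of -0.56 with an interval of -1.29 to 0.10. In low-hepatocyte cells it had 3 against 77 counts, a ratio of -2.19. Its neighbour Asz1 (chr6:18050964-18109061, minus strand), better known from germ cells, was at or near 0 in the other classes and had 8 against 162 counts, a ratio of -1.97. Sctr was at 0.18, and the bicarbonate exchanger Slc4a2 at -0.12. Atp1b1, the beta subunit of the sodium pump, stood at 2637 and 1521 CPM, a ratio of 0.79 that was 0.24 with equal weights.

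Of 25 genes of junctions and polarity, 0 were past 2-fold either way in the sums and 21 had a ratio above 0. Their median of 0.44 became 0.04 with equal weights and in low-hepatocyte cells. Cldn4, a claudin of tight epithelia, stood at 84.3 and 132 CPM, a ratio of -0.65 that was -1.46 with equal weights, -1.18 without the deepest cells and -1.0 in low-hepatocyte cells. The related Cldn6 (0.01), Cldn3 (0.18) and Cldn8 (0.89) were not lower in the sums.

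Among 18 genes of the basement membrane and its integrin receptors, 2 were higher (Lamb1 and Itgb8) and 2 lower (Nid1 and Dst), with a median of 0.11. With equal weights 0 were higher and 4 lower, with a median of -0.44. In low-hepatocyte cells 0 of 15 were higher and 4 lower (Lamb3, Itga2, Itga3 and Plec), with a median of -0.25. Lamb1, Nid1 and Dst were not among these 15 and had ratios there of 1.17, -2.03 and -1.09, on few counts. Itgb8, the integrin chain that activates latent TGF-beta, stood at 203 and 75.2 CPM, a ratio of 1.43, but 0.21 with equal weights and 0.20 in low-hepatocyte cells. Nid1 (nidogen) and Dst (dystonin, a hemidesmosome linker) had 7 against 167 and 5 against 99 counts, ratios of -2.21 and -1.94 that were -2.53 and -2.47 with equal weights.

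Of 13 measured primary cilium genes, 1 was higher (Arl13b, a small GTPase of the cilium, at 79.8 and 33.6 CPM, ratio 1.25) and 1 lower (Bbs4, 2 against 28 counts, -1.44). Arl13b was 0.99 with equal weights and 0.84 in low-hepatocyte cells. The median of the list, 0.27, turned to -0.26 with equal weights.

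Of 8 measured Notch genes, 1 was higher, the target Hes1, at 264 and 123 CPM, a ratio of 1.10 that was 0.28 with equal weights and 0.21 in low-hepatocyte cells. The ligand Jag1 (0.20) and the receptor Notch2 (0.15) were near the median of all genes. Of 14 Hippo and YAP genes, 1 was past 2-fold, and lower: Ankrd1, a nuclear target of YAP, at 54.7 CPM (35.1 to 81.4) and 123 CPM (109 to 138), a ratio of -1.17. The 3 classical YAP targets on the list lay below 0 in each setting. Ankrd1, Ccn1 and Ccn2 had ratios of -1.17, -0.87 and -0.39 in the sums, -1.61, -1.39 and -1.49 with equal weights, and -2.82, -2.15 and -1.71 in low-hepatocyte cells. Yap1 itself was at 0.63 and its partners Tead1 and Tead3 at 0.49 and 0.14 in the sums. In low-hepatocyte cells Tead3 was at least 2-fold lower as well, so that 4 of 14 genes were lower and 0 higher. The median of the whole list was 0.07 in the sums, -0.39 with equal weights (0 higher, 4 lower) and -0.04 in low-hepatocyte cells. The early response genes Egr1 and Junb, which also respond to handling of tissue, were at -0.51 and -0.41 in the sums and at -2.61 and -2.83 in low-hepatocyte cells. Their part in the Ankrd1, Ccn1 and Ccn2 values was not tested.

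**Figure D4:**
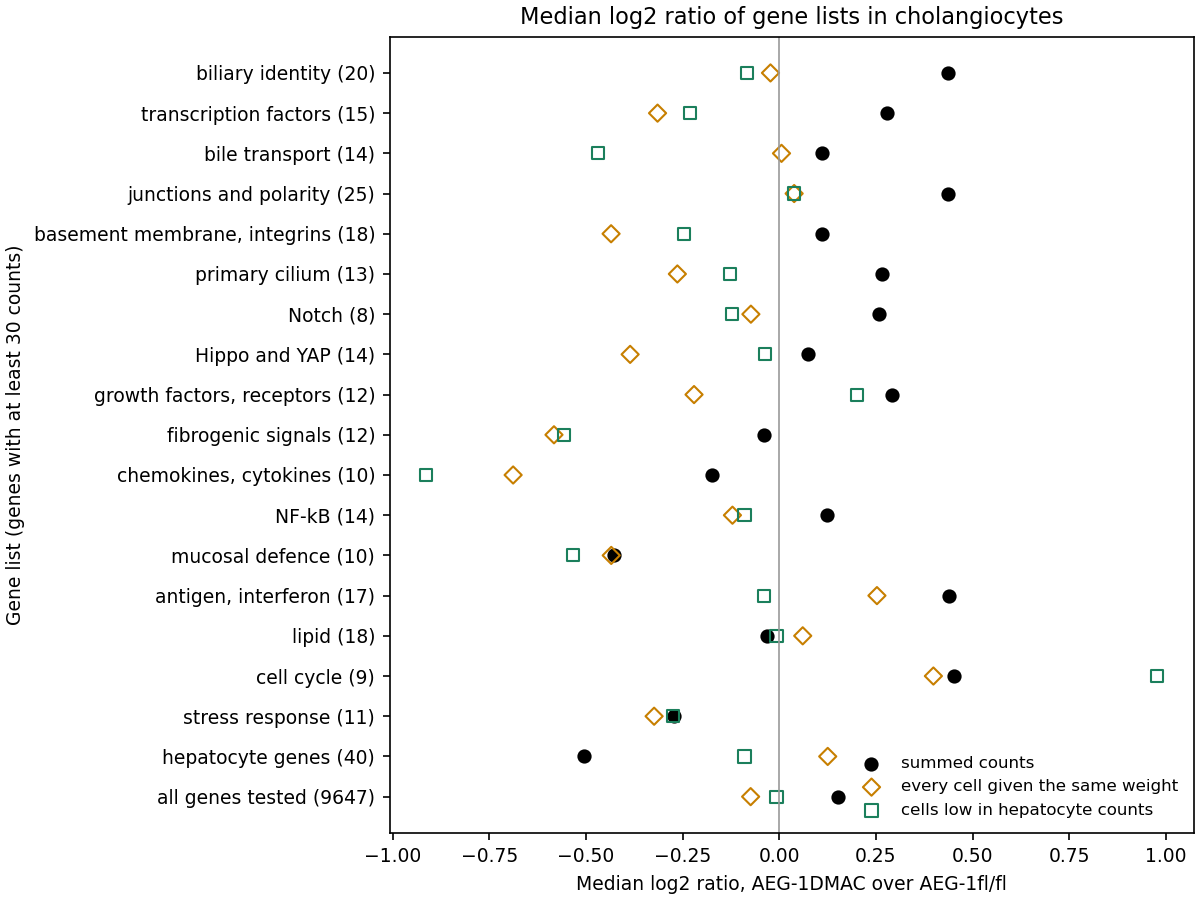
Median log2 ratio of the library labelled AEG-1DMAC over AEG-1fl/fl in cholangiocytes for 18 gene lists and for all genes tested, with the number of measured genes in brackets. Dots are sums, diamonds give equal weight to every cell and squares are low-hepatocyte cells. Chemokines and cytokines lie lowest in low-hepatocyte cells (-0.91), and transcription factors and primary cilium lie above all genes (0.15) in the sums but below all genes (-0.07) with equal weights.

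Of 10 measured chemokine, cytokine and adhesion genes, 1 was lower and 0 higher, with 4 ratios above 0 and a median of -0.17 that was -0.69 with equal weights and -0.91 in low-hepatocyte cells. The lower gene was Il1rn, the interleukin 1 receptor antagonist, at 52.4 and 156 CPM, a ratio of -1.57. Vcam1 and Cxcl16, an adhesion molecule and a chemokine for T cells, had ratios of -0.84 and -0.58, and in low-hepatocyte cells 3 counts each against 125 and 135. Of 12 fibrogenic signal genes, 1 was lower, Tgfb1, with 5 against 53 counts, and the median was -0.04. The median was -0.58 with equal weights (1 higher, 3 lower) and -0.56 in low-hepatocyte cells, where 1 of 10 was higher (Smad2) and 2 lower (Tgfbr2 and Pdgfb). Its isoform Tgfb2, low in hepatocytes (0.85 and 1.36 CPM), was at -0.05. Of 14 NF-kB genes, 1 was lower, the kinase Ikbke with 9 against 112 counts, and the median was 0.12. Snd1, a nuclease known to bind AEG-1, was at 0.35.

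Of 12 growth factor and receptor genes, 1 was higher (Igf1r, ratio 1.26) and 1 lower (Egfr, 45 against 702 counts, ratio -1.60), with a median of 0.29. Egfr was abundant in hepatocytes, where it stood at 157 and 487 CPM and had a ratio of -1.63. In low-hepatocyte cholangiocytes the Egfr ratio was 0.29 (8 against 37 counts), and 0.07 after a hepatocyte profile was subtracted. Igf1r, all but absent from hepatocytes, was 0.28 with equal weights. Fgfr3, a fibroblast growth factor receptor, stood at 1466 and 888 CPM, a ratio of 0.72 that was -0.22 with equal weights.

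Mucosal defence genes leaned lower. Of 10 measured, 3 were at least 2-fold lower (Lcn2, Slpi and S100a6) and 0 higher, and the median of -0.43 was also -0.43 with equal weights and -0.53 in low-hepatocyte cells. S100a6, a calcium-binding protein of reactive ducts, had 11 against 142 counts, a ratio of -1.32 that was -2.17 with equal weights. The protease inhibitor gene Slpi had 1 against 37 counts. Pigr, the receptor that carries IgA into bile, lay the other way, at 871 and 620 CPM, a ratio of 0.49 that was 1.22 with equal weights. Muc1, the surface mucin of bile ducts, was at 0.38.

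Of 18 lipid genes, 1 was higher and 0 lower, with a median of -0.03. The higher gene, the mitochondrial coactivator Ppargc1a, had 16 against 41 counts and a ratio of 1.01 that turned to -0.51 with equal weights. Scd1, a desaturase abundant in hepatocytes, stood at 8717 and 13412 CPM in cholangiocytes against 20432 and 21791 CPM in hepatocytes, and its ratio of -0.62 was 0.06 with equal weights. Of 11 stress response genes, 0 were past 2-fold in the sums, with a median of -0.27. With equal weights 1 was higher and 2 lower, and in low-hepatocyte cells 2 of 6 were lower (Junb and Egr1). Of the 40 hepatocyte genes themselves, 8 were lower and 0 higher, with a median of -0.51 in the sums and 0.13 with equal weights.

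Proliferation transcripts were found in a minority of cholangiocytes. A count of Mki67 or Top2a was found in 2 of 29 and 22 of 95 cells, and at least 3 such counts in 1 and 11 cells. These numbers are not thinned to equal depth. In the library labelled AEG-1fl/fl a cell of 246690 counts held 18 Mki67 and 29 Top2a counts. In the library labelled AEG-1DMAC 1 cell held 11 of 11 Mki67 counts, 16 of 17 Top2a counts and 21 of 35 Pcna counts. Of 9 measured cell cycle and arrest genes, 2 were higher (Ccnd1 and Mcm5) and 0 lower, with a median of 0.45. In low-hepatocyte cells 3 of 6 were higher (Top2a, Pcna and Ccnd1) and 0 lower, with a median of 0.98. The cell that held the 11 Mki67 counts, with 15282 counts and a hepatocyte share of 2.85%, is 1 of the low-hepatocyte cells. Ccnd1, the cyclin of cell cycle entry, stood at 490 and 206 CPM, a ratio of 1.25 that was 0.49 with equal weights and 1.05 in low-hepatocyte cells. Mcm5 had 19 against 39 counts and a ratio of 1.33. It was 0.80 without the cell with most of its counts. The arrest gene Cdkn1a was at -0.74 in the sums and 0.20 with equal weights.

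Collagen counts in cholangiocytes of the library labelled AEG-1DMAC came mainly from 1 cell. That cell, with 27996 counts, held 51 of 60 Col1a1, 36 of 54 Col1a2 and 56 of 70 Col3a1 counts. In low-hepatocyte cells the same genes had 0, 1 and 0 counts against 44, 46 and 85, so that the ratios above 0 in the sums (0.81, 0.80 and 0.46) rest on that cell.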

How the data were processed

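Single-cell libraries of fixed liver cells were made with a 10x Genomics probe kit, 1 library per genotype. The authors made the deposited counts with Cell Ranger 7.1.0 on mm10, per the submitters' processing notes: whole numbers of unique molecules per gene and cell, not normalized. They cover 19059 genes. The number of probes differs between genes, so levels were not compared between genes.

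Here cells with 100 or more detected genes and no more than 10% mitochondrial counts were kept, and cholangiocytes and the comparison classes were selected by marker sums. No doublet caller was run. Counts were summed over the cells of a class and library and scaled to CPM. Intervals are exact (Poisson, conditional binomial for ratios, Clopper-Pearson for shares, 95%) and cover counting error only. A floor of 3 counts replaced 0 in bounds. Genes with at least 30 summed counts were compared, and past 2-fold is a description, since 1 library per genotype allows no test. Enrichment over other classes used a constant of 0.5 added to each summed count before scaling.

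Genes were named by list membership, by the 12 highest and 12 lowest ratios (ranked by the interval end nearest to 0), by the 25 most enriched genes, and for Mtdh. Foxj1 and genes in single cells were chosen after their values were seen. Some genes that these rules name are not reported here. The cell rule, members and lists were chosen with earlier results of these data known. The alternatives were other marker minimums, cell and count filters, edgeR 4.0.16 TMM and median-of-ratios scaling (R 4.3.3), equal weights for cells, leaving out cells, and subtraction of the hepatocyte profile. Python 3.11.15 with SciPy 1.17.1 was used. The log2 ratio and its interval were checked on simulated summed counts with counting error only. The simulation held no single cells, so the other steps were not checked by it.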

Additional observations from a re-analysis of the deposited data

Results flagged for a closer look

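Some of the genes with the highest or lowest ratios in cholangiocytes lay on the opposite side of 0 in another cell class, with counting intervals off 0 in both. The differences between classes were not tested, as there is 1 library per genotype. Bgn, at 1.80 in cholangiocytes, was -0.19 in hepatocytes and -0.27 in endothelial cells. Isg15, at 2.27, was -0.24 in hepatocytes. Lmcd1, at 2.84, was -1.70 in hepatocytes. Nr1i3, at -4.05, was 0.35 in hepatocytes. Oas1a, at 2.45, was -0.30 in macrophages and -0.74 in endothelial cells. Rab27b, at 1.66, was -1.23 in hepatocytes, where its level was 0.28 and 0.67 CPM.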

How the results depend on the processing

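No paired analysis was possible because each genotype is 1 library and no test was run. The cause of the changes below was not tested. Without a minimum beyond 1 count in each library 1062 genes were higher and 714 lower past 2-fold, and with at least 100 summed counts 110 and 188, as fewer genes were compared. TMM and median-of-ratios scaling left 217 and 228 higher, with 687 and 676 lower. Genes lower numbered 1098 with equal weights and 897 after subtraction of the hepatocyte profile. With at least 10 marker counts the share in the library labelled AEG-1fl/fl was 2.11%, the hepatocyte share 7.91% and 8.05%, and list medians were -0.14 (primary cilium), -0.073 (Notch), -0.53 (stress response) and -0.30 (hepatocyte). As medians over cells the hepatocyte shares were 6.43% and 4.77%.

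With equal weights the list medians that moved were 0.039 (junctions), -0.26 (primary cilium), -0.073 (Notch) and 0.13 (hepatocyte), and Ppargc1a turned to -0.51. In low-hepatocyte cells they were -0.084 (biliary identity), 0.039 (junctions), -0.13 (primary cilium), -0.12 (Notch), -0.91 (chemokines), -0.039 (antigen presentation and interferon) and -0.090 (hepatocyte). There Cyp4a32 turned to 1.17, Egfr to 0.29, Isg15 to -0.67 and Kcnma1 to -0.40. After subtraction they were 0.17 (junctions), -0.10 (primary cilium), -0.080 (Notch), 0.22 (lipid), -0.86 (stress response) and -1.14 (hepatocyte), and Egfr turned to 0.074. Without the deepest cell of each library, an alternative chosen after seeing the data, the hepatocyte median was -0.25.

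Depth limits the low-hepatocyte values of the library labelled AEG-1DMAC, which rest on 9 cells.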
